A study of Mus musculus with 6 samples.

Results

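Plet1, Prdm1, Gata6 and Krt79 mark the upper hair follicle, between the bulge and the opening of the follicle, and were read from every probe set that the annotation of the Mouse Genome 430 2.0 array gives to exactly 1 of these symbols. They had 8 of the 45037 non-control probe sets, 3 for Plet1, 3 for Gata6 and 1 each for Prdm1 and Krt79, and were 4 of 18193 named genes. The arrays measured total RNA of epithelial cells from the bulge of mouse vibrissae, taken at 7 to 8 weeks of age, after 6 days of 3D culture in atelocollagen. By the series design, isolated cells were separated for culture in NFFSE medium, which held Noggin, FGF7, FGF10, the hedgehog agonist SAG and EGF, and in NFFS medium, which held the same factors without EGF, each factor at 50 ng/ml, and the experiment was done 3 times. This gave 3 NFFSE and 3 NFFS arrays, named here by replicate 1 to 3. No sort for a cell type is described for these cultures, and no source used here gives the mouse strain of these cultures.

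The hair follicle above the bulge holds the isthmus, the junctional zone at the mouth of the sebaceous gland, the sebaceous duct and the infundibulum. Cells of these compartments renew the upper follicle and the gland largely apart from the bulge, and can contribute to other parts after wounding. Plet1 encodes a surface protein with a lipid anchor that marks isthmus keratinocytes, and Prdm1 encodes Blimp1, a zinc finger repressor of transcription found in the sebaceous gland and the upper follicle. Gata6 encodes a zinc finger transcription factor of the junctional zone and sebaceous duct, and Krt79 is a type II keratin of the infundibulum and sebaceous duct.

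The 4 genes did not move together between the media. With EGF, Plet1 was 4.37-fold higher, Prdm1 was 5.61-fold lower, Krt79 was 2.53-fold lower and Gata6 was 2.22-fold lower, the last at low signals and with a call that most other settings did not keep. Signals are the authors' MAS5 intensities, which are linear and merge all probes of a probe set, and differences are NFFSE minus NFFS on the log2 scale. The test was limma, which fits each probe set and borrows strength for its variance from the others, with p-values adjusted over all 45037 probe sets (Benjamini-Hochberg) and a threshold of 0.05. A gene with several probe sets is called by the one with the highest mean log2 signal. By this rule 1 of the 4 genes was called higher and 3 lower in NFFSE, with no overlap between the media for any of the 4, whereas the media did not overlap for 40.5% of all genes and 25.4% of all genes were called in either direction (10.5% higher and 14.8% lower). Of the 8 probe sets, 2 were called higher, 3 lower and 3 were not called, beside 20.4% of all probe sets called (7.69% higher and 12.7% lower). On 7 of the 8 the NFFSE arrays did not overlap with the NFFS arrays, which held for 36.2% of all probe sets.

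**Figure D1:**
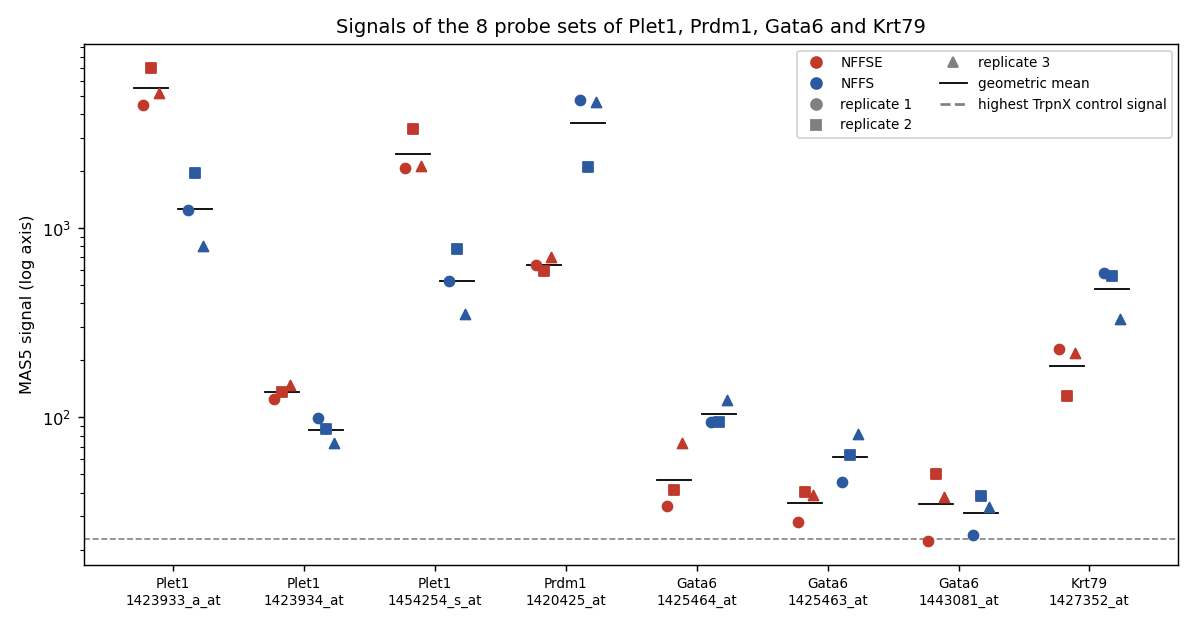
MAS5 signal (vertical log axis) of the 8 probe sets of the 4 genes. Each point is 1 array, NFFSE in red and NFFS in blue, with the replicate given by the shape, the black line the geometric mean of 3 arrays and the dashed line the highest signal of the TrpnX control probe sets (22.7). The media are apart on every probe set except 1443081_at of Gata6, with Plet1 higher and Prdm1, Krt79 and the other Gata6 probe sets lower in NFFSE.

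The start regions of Plet1, Prdm1 and Krt79 are shown because Plet1 and Prdm1 had the largest differences of the 4 genes, in opposite directions, and Krt79 was lower in NFFSE, as Prdm1 was. That of Gata6, also lower in NFFSE, is not shown. They cover 250 bases before and 50 bases after the annotated start, 5′ to 3′ on the strand of the gene, from RefSeq on GRCm38.p6. The capitals mark matches, on either strand, to the 4 motifs searched. These were GATAA (read by GATA factors), GAAAGT (a core of Prdm1 sites), TGANTCA (with N for any base) and TATAAA (the TATA box). TGANTCA is a looser form of the site of AP-1, a factor induced by growth factors, whose consensus has G or C in the middle.
Plet1, chr9:50494275-50494574, plus strand: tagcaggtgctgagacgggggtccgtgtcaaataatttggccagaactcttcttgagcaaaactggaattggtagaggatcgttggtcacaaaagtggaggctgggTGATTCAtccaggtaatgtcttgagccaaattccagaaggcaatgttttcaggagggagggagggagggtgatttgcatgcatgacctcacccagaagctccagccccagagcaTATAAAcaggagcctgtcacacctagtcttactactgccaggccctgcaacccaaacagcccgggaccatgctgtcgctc
Prdm1, chr10:44458699-44458998, minus strand: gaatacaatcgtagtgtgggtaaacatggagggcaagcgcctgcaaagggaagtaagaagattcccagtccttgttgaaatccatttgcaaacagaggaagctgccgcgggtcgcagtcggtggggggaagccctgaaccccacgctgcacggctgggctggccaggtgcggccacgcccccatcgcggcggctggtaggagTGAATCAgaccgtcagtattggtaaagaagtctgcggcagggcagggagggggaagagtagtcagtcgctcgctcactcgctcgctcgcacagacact
Krt79, chr15:101940275-101940574, minus strand: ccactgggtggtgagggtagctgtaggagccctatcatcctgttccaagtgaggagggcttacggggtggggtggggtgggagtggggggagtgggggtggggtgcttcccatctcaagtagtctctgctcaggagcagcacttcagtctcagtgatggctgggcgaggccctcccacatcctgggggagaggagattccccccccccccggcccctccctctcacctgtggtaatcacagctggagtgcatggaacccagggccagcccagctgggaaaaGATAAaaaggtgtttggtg
The Plet1 window held TGATTCA, which starts 144 bases before the transcription start, and TATAAA, which starts 30 bases before it. The Prdm1 window held TGAATCA, 48 bases before the start, and the Krt79 window held GATAA, 32 bases after it. None of the 3 windows matched GAAAGT. Over all 32851 promoter windows of this length, 7.81% held TGANTCA, 13.6% TATAAA, 25.4% GATAA and 14.3% GAAAGT. Both TGANTCA matches had T or A in the middle, so neither was the AP-1 consensus itself. The matches describe the letters of the windows, and factor binding was not measured.

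Plet1, alone of the 4 genes, was higher in NFFSE-cultured cells. Its brightest probe set, 1423933_a_at, read 4489, 7036 and 5178 with NFFSE in replicates 1, 2 and 3, against 1249, 1963 and 802 with NFFS. The lowest NFFSE array was 2.29-fold above the highest NFFS array, and replicate 2 was the highest array in both media. Signals averaged 5568 ± 1317 with NFFSE and 1338 ± 586 with NFFS (SD, n = 3 each). This was a 4.37-fold difference, with a 95% interval of 2.84 to 6.72-fold (2.13 on the log2 scale, SE 0.28, limma adjusted p = 4.4e-04). This call was kept under all alternatives except the methods' t-test (adjusted p = 0.058).
The second probe set, 1454254_s_at, had 2075, 3320 and 2127 in NFFSE and 528, 771 and 352 in NFFS. It gave nearly the same difference, 4.67-fold (log2 difference 2.22, SE 0.27, adjusted p = 2.4e-04, limma), and ordered the 6 arrays in the same way as the first (Spearman rho of 1 and Pearson r of 0.997 over the 6 arrays, as a description).
The third probe set, 1423934_at, had 125, 135 and 148 in NFFSE and 99.7, 87.1 and 73.0 in NFFS. Here too every NFFSE array lay above every NFFS array, by at least 1.25-fold, but the log2 difference of 0.66 (95% interval 0.13 to 1.20) did not pass the test (adjusted p = 0.083, limma). It was called higher with the arrays centered on their medians (0.038), with quantile normalization (0.028) or without dim probe sets (0.045).
The 3 probe sets therefore shared a direction and differed in size. In the annotation Plet1os, a noncoding RNA gene, overlaps the Plet1 locus, and its single probe set had signals of 28.8, 5.47 and 21.1 in NFFSE and 16.2, 1.21 and 2.45 in NFFS, with 2 of the NFFSE and all 3 NFFS arrays at or under 22.7, the level taken as background (adjusted p = 0.24, limma).

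Prdm1 showed the largest difference of the 4 genes and was lower in NFFSE. Its single probe set, 1420425_at, read 636, 590.5 and 699 with NFFSE, against 4759, 2104 and 4637 with NFFS. The NFFSE arrays lay close together, whereas the NFFS array of replicate 2 was well below the other NFFS arrays and still 3.01-fold above the highest NFFSE array. Signals averaged 642 ± 54.3 with NFFSE and 3833 ± 1499 with NFFS (SD, n = 3 each). Prdm1 was thus 5.61-fold lower in NFFSE, with a 95% interval of 3.73 to 8.45-fold (-2.49 on the log2 scale, SE 0.27, limma adjusted p = 1.1e-04). The call was kept under all 16 alternatives, with log2 differences from -2.88 without NFFS replicate 2 to -2.29.

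Krt79 was lower in NFFSE by a smaller factor. Its single probe set, 1427352_at, had signals of 229.6, 130.3 and 220 in NFFSE and 581, 555 and 331 in NFFS. The media did not overlap, although the gap between the nearest arrays was only 1.44-fold, and the lowest NFFSE array was that of replicate 2 while the lowest NFFS array was that of replicate 3. Signals averaged 193 ± 54.7 with NFFSE and 489 ± 137 with NFFS (SD, n = 3 each). Krt79 was thus 2.53-fold lower in NFFSE, with a 95% interval of 1.67 to 3.84-fold (-1.34 on the log2 scale, SE 0.27, limma adjusted p = 0.0056). The call was lost with the methods' t-test (adjusted p = 0.11), with variances that did not follow intensity (0.068) and when low signals were raised to a floor (0.066).

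Gata6 was read at low signals, and its difference had the largest standard error of the 4 genes. The probe set 1425464_at had 33.8, 41.2 and 73.2 in NFFSE and 94.4, 94.9 and 124 in NFFS. The NFFSE array of replicate 3 came near to the NFFS arrays, with a gap of 1.29-fold. Signals averaged 49.4 ± 20.9 with NFFSE and 104 ± 17.01 with NFFS (SD, n = 3 each). Gata6 was thus 2.22-fold lower in NFFSE by this probe set (-1.15 on the log2 scale, SE 0.36, 95% interval -1.95 to -0.35, limma adjusted p = 0.048).
The probe set 1425463_at had 27.8, 40.3 and 38.8 in NFFSE and 45.6, 63.1 and 81.8 in NFFS, also without overlap, and its log2 difference of -0.81 (95% interval -1.69 to 0.07) was not called (adjusted p = 0.20, limma). The third, 1443081_at, had 22.2, 50.2 and 37.8 in NFFSE and 24.0, 38.2 and 33.4 in NFFS. These arrays overlapped throughout, and the log2 difference was 0.15 (95% interval -0.93 to 1.24, adjusted p = 0.88, limma). The first and second Gata6 probe sets had a Pearson r of 0.868 over the 6 arrays, whereas the third had 0.037 with the first and 0.30 with the second, as a description.
Over all Gata6 probe sets averaged, the log2 difference was -0.60 (adjusted p = 0.29, limma), and the call of 1425464_at was kept in 4 of 16 alternatives. It ended without any 1 of 5 of the 6 arrays (adjusted p of 0.084 to 0.16) and was kept without NFFSE replicate 3.

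**Figure D2:**
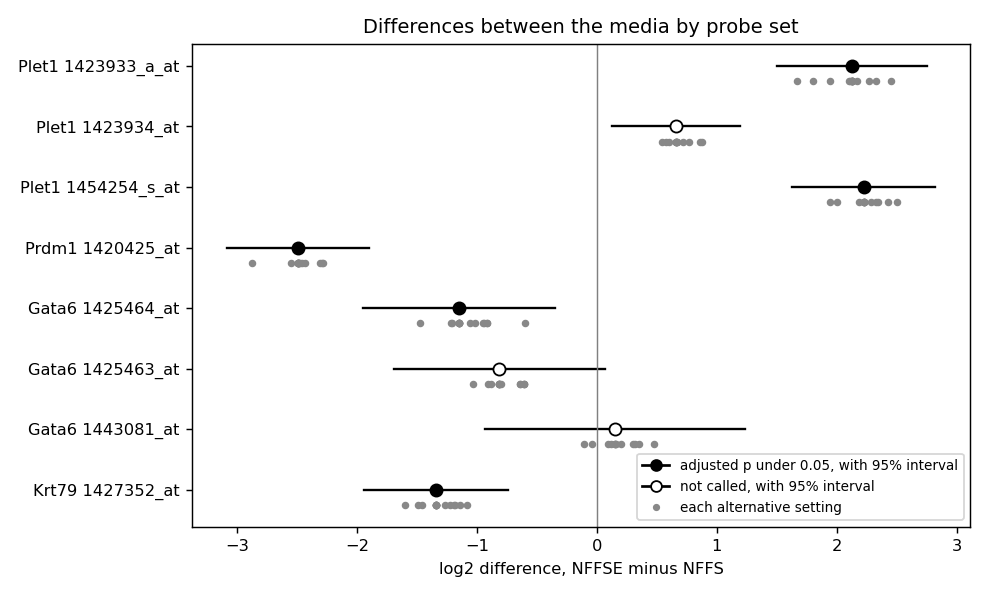
Log2 difference, NFFSE minus NFFS (horizontal axis), of the 8 probe sets. Large points are the limma estimates, filled where the adjusted p was under 0.05, bars are 95% intervals and grey points are the estimates under each alternative setting. The Plet1 points are all above 0 and those of Prdm1 and Krt79 all below it, whereas 1443081_at of Gata6 lies around 0.

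Differences were also read between arrays of the same replicate number, each pair called a repeat here only for its shared number. The labels do not say that a number marks cells of 1 isolation, and same-numbered arrays showed little shared deviation. For Plet1 (1423933_a_at) the difference was 1.85, 1.84 and 2.69 on the log2 scale in repeats 1, 2 and 3, and for Prdm1 it was -2.90, -1.83 and -2.73. For Krt79 it was -1.34, -2.09 and -0.59, and for Gata6 (1425464_at) it was -1.48, -1.20 and -0.76. All 3 repeats of each gene had the direction of its mean. Any matching of the arrays would give this, since the media did not overlap on these probe sets. Repeat 2 had the smallest difference for Prdm1 and the largest for Krt79, and repeat 3 the smallest for Krt79 and Gata6 and the largest for Plet1, so no repeat was the most affected for all 4 genes.

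**Figure D3:**
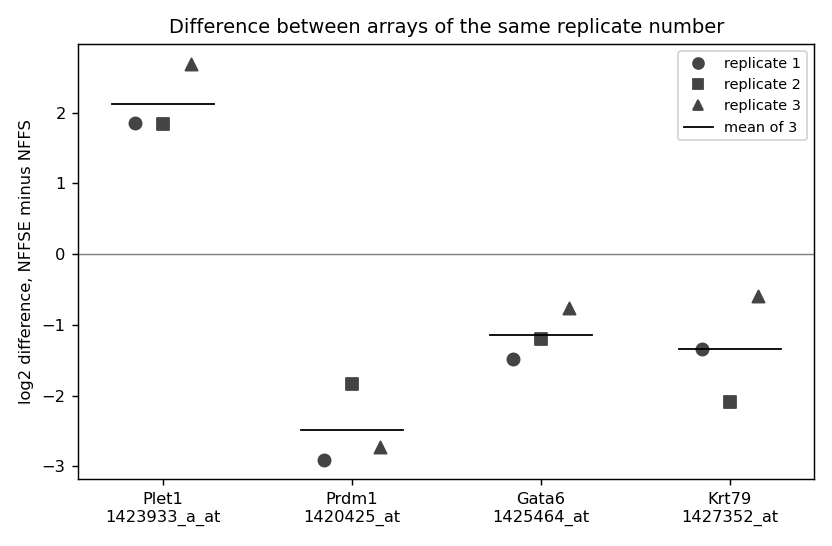
Log2 difference, NFFSE minus NFFS (vertical axis), between the arrays of each replicate number for the brightest probe set of each gene, with the shape giving the number and the line the mean of 3. The points of Plet1 are above 0, from 1.84 to 2.69, and those of the other genes are below 0, from -0.59 for Krt79 to -2.90 for Prdm1.

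Other genes of the upper follicle were also divided. Of 8 such genes on a list, 7 were measured, and 1 was higher, 3 were lower and 3 were not called in NFFSE, with a median log2 difference of -0.030, beside -0.011 over all 18193 genes. Of all genes, 25.4% were called (10.5% higher and 14.8% lower). Lrig1, a transmembrane protein that dampens EGF receptor signaling and marks stem cells of the junctional zone, had 554, 594 and 672 in NFFSE and 2790.3, 2164 and 2283 in NFFS (1434210_s_at). It was 3.97-fold lower in NFFSE (log2 difference -1.99, SE 0.13, adjusted p = 7.1e-06, limma), as was its probe set 1449893_a_at (log2 difference -1.81), while the dim 1419928_at had a log2 difference of 0.48 (adjusted p = 0.32, limma).
Lgr6, a receptor of isthmus stem cells, had 98.7, 64.1 and 67.3 in NFFSE and 185, 145 and 155 in NFFS on 1427028_at, 2.14-fold lower in NFFSE (adjusted p = 0.013, limma). Its other probe set, 1436218_at, showed a larger difference, with 39.1, 31.7 and 20.4 in NFFSE and 416, 178 and 358 in NFFS (at least 9.80-fold lower, with NFFSE replicate 3 at background, adjusted p = 1.7e-04, limma). The call of 1427028_at ended with arrays centered on their medians, with the methods' t-test and without NFFS replicate 1.
Cst6, a cystatin that inhibits cysteine proteases, was 2.69-fold lower in NFFSE (570.1 ± 45.2 in NFFSE and 1538 ± 173 in NFFS, SD, n = 3 each, adjusted p = 3.6e-05, limma). Klk10, a kallikrein, was the gene of the list that moved as Plet1 did, with 720.1, 522 and 398 in NFFSE and 98.4, 125 and 70.4 in NFFS, a 5.57-fold rise (limma adjusted p = 1.2e-04). The values of Krt17, a keratin of the outer root sheath, Defb6, a defensin, and Atp6v1c2, a proton pump subunit, gave log2 differences of 0.12, -0.030 and 0.23 with adjusted p of 0.63, 0.97 and 0.68 (limma).

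**Figure D4:**
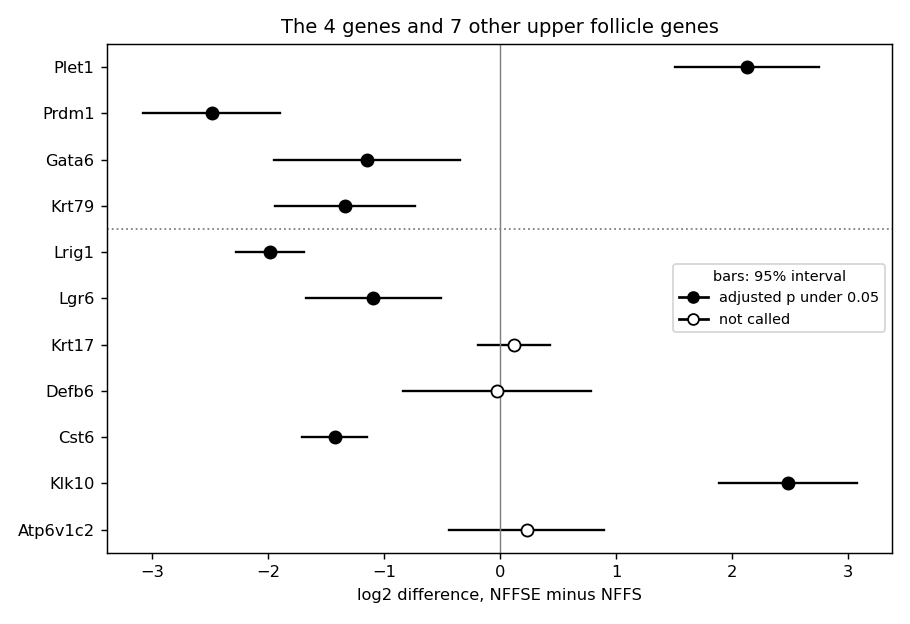
Log2 difference, NFFSE minus NFFS (horizontal axis), of the 4 genes (above the dotted line) and 7 other upper follicle genes, each read from its brightest probe set, with 95% intervals from limma and filled points for an adjusted p under 0.05. Plet1 and Klk10 lie above 0, and Prdm1, Gata6, Krt79, Lrig1, Lgr6 and Cst6 lie below it.

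Relatives of the 4 genes were read in the same fit, where 25.4% of all genes were called (10.5% higher and 14.8% lower). Of 7 other GATA factors and their cofactors, Gata3, a factor of the inner root sheath and epidermis, was 1.34-fold lower in NFFSE (2594 ± 47.8 in NFFSE and 3479 ± 343 in NFFS, SD, n = 3 each, adjusted p = 0.019, limma, kept in 8 of 16 alternatives) and 6 were not called. Of 11 measured PRDM factors, Prdm2 (1.63-fold) and Prdm15 (1.63-fold) were lower, Prdm10 was 1.54-fold higher and 8 were not called, and of these calls that of Prdm2 was kept in 15 of 16 alternatives and those of Prdm15 and Prdm10 in 7 each. The call of Gata3 ended without any 1 array other than NFFS replicate 2, that of Prdm10 without any 1 other than NFFS replicate 3, and that of Prdm15 without any 1 other than NFFSE replicate 3 or NFFS replicate 2. Prdm1 itself differed 5.61-fold.
Of 9 genes known as targets of Prdm1 in lymphocytes or skin, 4 were higher and 5 were not called in NFFSE, with a median log2 difference of 0.49. The 4 were Id3, which blocks basic helix-loop-helix proteins (4.93-fold), the MAP kinase phosphatase Dusp1 (2.86-fold), Fos (1.69-fold) and Myc (1.62-fold), of which Fos and Myc were kept in 8 and 9 of 16 alternatives. Without NFFS replicate 1 or without NFFSE replicate 3, 2 of the list were called higher, and without NFFSE replicate 3 also 1 lower. The number called higher ranged from 1 with the methods' t-test to 5 with arrays centered on their medians. It was 2 with a floor under low signals or without the intensity trend. Fos, Myc and Dusp1 are also known to respond to growth factors, and the part of Prdm1 in these differences was not tested.
Krt79 lies between Krt4 and Krt78 in the type II keratin cluster. Of 13 other type II keratins, 3 were higher in NFFSE (Krt6b 10.1-fold, Krt1 1.90-fold and Krt6a 1.53-fold), 2 were lower (Krt8 2.48-fold, and Krt7 at least 3.19-fold, being at background on 2 of the NFFSE arrays) and 8 were not called. The calls of Krt1 and Krt6a were kept in 10 and 9 of 16 alternatives, and 1 keratin was called higher without NFFSE replicate 2 or without NFFS replicate 3. Krt4 had a log2 difference of 0.36 (adjusted p = 0.57, limma). That of Krt78 was -0.13 (adjusted p = 0.95, limma), with arrays at background in both media.
The sebaceous gland borders the junctional zone. Of 9 measured sebocyte genes, Scd1, Scd3 and Mgst1 were higher, Elovl3 was lower and 5 were not called in NFFSE. The number called higher ranged from 1 with the methods' t-test to 5 with arrays centered on their medians or with the replicate block. The median log2 difference of 0.72, beside -0.011 over all genes, was 0.41 with genes at background in 1 medium set to their bound. Pparg, a regulator of sebocyte differentiation, was at background on all arrays but NFFSE replicate 2. Of 12 suprabasal genes, 7 were higher and 5 were not called, and those with the smallest p were Ivl (6.23-fold), Grhl3 (4.66-fold), Krt10 (7.23-fold) and Sbsn (2.12-fold). Of 10 bulge markers 4 were higher and 6 were lower in NFFSE, and those with the smallest p were Cd34 (3.93-fold higher), Tcf7l1 (2.99-fold lower), Lhx2 (3.64-fold lower) and Cd200 (5.08-fold lower).

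The genes most like each of the 4 across the 6 arrays were sought among 9094 genes at or above the median signal, by Pearson's r of log2 signals, as a description. For Plet1 they were Tuba4a, Fam214b and Rnf19b (r of 0.996 each), for Prdm1 Ak3 (0.999), Tln2 (0.998) and Fam168a (0.998), for Gata6 Ltbp4 (0.995), Rnf146 (0.992) and Tmem9 (0.992), and for Krt79 Gpatch1 (0.997), Thap3 (0.996) and Vim (0.990). The mitochondrial adenylate kinase Ak3 was 2.15-fold lower in NFFSE and followed Prdm1 in its lower NFFS array of replicate 2 (1078, 1024 and 1128 in NFFSE and 2554, 1832 and 2647 in NFFS). Such likeness was common, since 456 genes had r above 0.95 with Plet1, 803 with Prdm1, 118 with Krt79 and 81 with Gata6, and all points share the split between the media.

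Prdm1 and Gata6 are also used by cells other than keratinocytes, and in bulk RNA fewer cells of a type and less RNA per cell cannot be told apart. The keratinocyte genes Krt5, Krt14, Trp63, Cdh1, Epcam and Itgb4 were bright on all arrays, with a summed signal of 95567 to 108178 in NFFSE and 77898 to 88223 in NFFS. Of these 6 genes, Krt14 (1.77-fold), Epcam (1.57-fold) and Itgb4 (2.29-fold) were called higher in NFFSE and 3 were not called. Leukocyte markers summed to 411 to 463 in NFFSE and 406 to 520.1 in NFFS, and 0 of 9 were called in limma (0 also at an unadjusted p under 0.05 and with the methods' t-test). Most of the sum came from Cd8a (141 to 171 in NFFSE and 139 to 174 in NFFS) and Cd68 (129 to 182 in NFFSE and 182 to 239 in NFFS). Cd3e, Cd4 and Cd207 were at background on all 6 arrays. Ptprc, which all leukocytes carry, was at background on all 3 NFFS arrays and 1 NFFSE array. The part of leukocytes in the difference of Prdm1 was not tested. Fibroblast and dermal papilla markers summed to 357 to 430 in NFFSE and 412 to 574 in NFFS, with 1 of 8 lower (Col1a2) and Corin at background on all 6 arrays. Smooth muscle markers, from cells that use Gata6, summed to 135 to 265 in NFFSE and 388 to 560 in NFFS, with Acta2 3.01-fold lower in NFFSE, Cnn1 at background on all 6 arrays and Myh11 on 4 of them. Their part in the difference of Gata6 was not tested.
Endothelial markers summed to 225 to 291 in NFFSE and 188 to 276 in NFFS, and melanocyte markers to 194 to 257 in NFFSE and 193 to 252 in NFFS, with 0 of 5 called in each list (2 endothelial and 0 melanocyte genes had an unadjusted p under 0.05, and 0 were called with the methods' t-test). The log2 ratio of 3' to 5' control signal for Gapdh, a sign of RNA integrity, was -0.38 to -0.36 in NFFSE and -0.63 to -0.60 in NFFS. For Actb this ratio overlapped between the media, at 0.26 to 0.29 in NFFSE and 0.26 to 0.37 in NFFS. The part of RNA integrity in the differences of the 4 genes was not tested. With the arrays centered on their medians in place of the authors' scaling, the median log2 difference of all probe sets was 0.14 in place of -0.065, and 57.7% of the calls were higher in NFFSE in place of 37.8%. The directions of Plet1, Prdm1, Krt79 and 1425464_at of Gata6 were kept under that scaling, with log2 differences of 2.33, -2.29, -1.14 and -0.95.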

How the data were processed

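Total RNA of bulge epithelial cells cultured in NFFSE (n = 3) or NFFS (n = 3) medium was measured on Affymetrix arrays, 1 for each culture, and the labels speak of biological replicates. The authors deposited linear intensity values. The submitters' processing notes name MAS5, whose version no source used here gives. The values show that each array was scaled to the same mean without its lowest and highest 2%. Scanner values and detection calls were not used here, and arrays carry no read depth, so that their number limits the precision.

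Of 45101 probe sets, 64 Affymetrix controls were left out, 34945 carried 1 symbol, 932 several and 9160 none in the platform annotation, and only those with 1 symbol were named. On log2 signals of the deposited values, limma 3.58.1 (R 4.3.3) was run (moderated variances with an intensity trend), with Benjamini-Hochberg adjustment over all 45037 probe sets. For lists, the probe set of highest mean log2 signal stood for its gene. The series design describes cells separated between the media in an experiment done 3 times, but does not tie the replicate numbers to an isolation, so the numbers were not taken as a pairing in the fit. Background was set at 22.7, the brightest of 18 TrpnX control values, after the data were seen, and a fold with 1 medium partly at background is given as at least the ratio to the higher of 22.7 and the signal (means of log2 values).

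The 4 genes and all lists were chosen with earlier results of these data known. Named genes are the 4 genes, the 3 most alike for each, Lrig1, Lgr6, and the called members of each list, or the 4 with the smallest p where over 6 were called. Other genes were named after their values were seen. List genes without a probe set under their name alone were not analysed here. Alternatives were median centering, quantile normalization, 16 added to signals, a floor at 22.7, a filter below the 40th percentile, 1 probe set a gene, the mean of all probe sets of a gene, no intensity trend, the methods' t-test (two-tailed, on log2 values, adjusted), the replicate block and leaving out each array. Promoter windows of 3 of the 4 genes are printed.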

Additional observations from a re-analysis of the deposited data

How the results depend on the processing

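Prdm1 and 1454254_s_at of Plet1 kept their direction and call under every alternative. The log2 differences of the other 3 genes' brightest probe sets kept their direction under every alternative, but not always their call. With the methods' t-test the calls of 1423933_a_at of Plet1 (log2 difference 2.13, adjusted p = 0.058), Krt79 (-1.34, 0.11) and 1425464_at of Gata6 (-1.15, 0.14) ended, which left 0 of the 4 genes called higher and 1 lower, and 1 probe set called higher and 1 lower. Without the intensity trend, Krt79 (-1.34, 0.068) and Gata6 (-1.15, 0.092) ended, and with a floor under low signals likewise (-1.34, 0.066 and -1.15, 0.11), each leaving 1 gene and 1 probe set called lower. Gata6 also ended with arrays centered on their medians (-0.95, 0.086), quantile normalization (-0.94, 0.084), 16 added to signals (-0.92, 0.052) and the mean of its probe sets (-0.60, 0.29). Leaving out each array, it ranged from -1.47 without NFFSE replicate 3 to -0.91 without NFFSE replicate 1 and was called only in the first case, and 2 to 3 of the 4 genes were called lower. Without 1 array, 1443081_at of Gata6 (0.15, not called) ranged from -0.11 without NFFSE replicate 2 to 0.48 without NFFSE replicate 1, and was -0.038 without NFFS replicate 1.

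Over all probe sets, 3463 were called higher and 5705 lower. These counts were 1935 and 3003 with the methods' t-test, 1805 and 3220 without the trend, 4975 and 3645 with arrays centered on their medians, and 2411 to 3543 and 4163 to 5065 without 1 array. The deviations of same-numbered arrays from their medium's mean correlated at 0.050, 0.022 and 0.016. Each array correlated best with its own number, but NFFSE replicate 3 reached 0.014 with NFFS replicate 2. The series design describes a split of the cells without tying it to the numbers, and the main fit treated the arrays as sharing only a number. With the replicate block, 3721 were called higher and 6082 lower, and no call of the 4 genes changed. The filter removed 1443081_at. With 3 arrays for each medium, the 95% interval of a log2 difference reached from -3.08 to -1.90 for Prdm1 and from -1.95 to -0.35 for 1425464_at of Gata6.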
